A study of Mus musculus with 6 samples.

Results

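The nonclassical MHC class I genes described here are 7 genes of the mouse MHC on chromosome 17: H2-T23, H2-T22 and H2-T24 of the T region, H2-M3 of the M region, and H2-Q4, H2-Q7 and H2-Q10 of the Q region. They were taken by gene symbol from a table of 25206 probe sets, where each had 1 probe set, so that all 7 were found. Expression was measured on arrays of choroid plexus, a fringe of epithelium and vessels in the brain's ventricles that makes cerebrospinal fluid, from C57BL/6J mice. Aged mice were 20 to 22 months old (n = 3) and young mice 2 to 3 months old (n = 3), with 1 array and a separate mouse for each sample. All 10 epithelial markers examined were bright in both ages. Of these, 8 had a higher mean in aged tissue, and the median difference, aged minus young, was 0.10 on the log2 scale. Their sum in linear units was 23346 in young replicate 1 and 34351 to 35749 on the other arrays. The 2 brightest markers weigh most in it. On young replicate 1 Ttr read 12.13 and Enpp2 12.08, against 13.29 to 13.32 and 13.01 to 13.04 on the other arrays. Folr1, Kl and Kcnj13 were also lowest there, but Aqp1, Otx2, Clic6, Slc4a5 and Prlr lay within the range of the other arrays. The water channel Aqp1, 1 of the markers with a lower aged mean, stood at 9.29 in aged and 9.42 in young tissue.

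Classical class I molecules are found on nearly all cells and show peptides from inside the cell to cytotoxic T cells. The nonclassical ones share the fold, and most need the same light chain, beta-2 microglobulin, but vary little between individuals and are seen by a narrower set of receptors. The product of H2-T23, known as Qa-1, carries leader peptides of other class I chains and is read by the CD94 receptor complex of natural killer cells. That of H2-M3 presents formylated peptides of bacteria and mitochondria, and that of H2-T22 is a ligand of gamma delta T cell receptors. H2-Q7 encodes the lipid-anchored protein Qa-2, and H2-Q10 a soluble chain made mainly by liver.

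The proximal promoters of these genes are shown because the class I family is known to be switched on through an interferon-stimulated response element (ISRE), the DNA site of interferon regulatory factors. Sequences come from the RefSeq promoter table of build GRCm38.p6, which covers 250 bases before to 50 after a gene's start, and 6 of the 7 members matched it by symbol. Each line gives 50 bases, 5′ to 3′ on the gene's strand. Capitals mark the general form of the ISRE in H2-T23 and H2-T22 and a shared run in the others. Both searches are described after the lines.
H2-T23 (chr17:36032796-36032845, - strand): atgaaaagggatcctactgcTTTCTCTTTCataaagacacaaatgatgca
H2-T22 (chr17:36042904-36042953, - strand): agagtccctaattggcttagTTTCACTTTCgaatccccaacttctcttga
H2-M3 (chr17:37270112-37270161, + strand): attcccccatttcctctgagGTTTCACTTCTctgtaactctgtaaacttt
H2-Q4 (chr17:35379443-35379492, + strand): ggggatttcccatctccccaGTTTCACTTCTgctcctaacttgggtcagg
H2-Q7 (chr17:35439021-35439070, + strand): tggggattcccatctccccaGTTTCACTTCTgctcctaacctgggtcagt
H2-Q10 (chr17:35469913-35469962, + strand): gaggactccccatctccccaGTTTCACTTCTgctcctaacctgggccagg
H2-K1 (chr17:34000409-34000458, - strand): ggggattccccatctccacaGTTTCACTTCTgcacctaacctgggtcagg
H2-D1 (chr17:35262923-35262972, + strand): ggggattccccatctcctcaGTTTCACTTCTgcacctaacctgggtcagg
The run GTTTCACTTCT is the longest stretch shared by the promoters of H2-M3, H2-Q4, H2-Q7 and H2-Q10 and of the classical genes H2-K1 and H2-D1. These 6 were set side by side after their sequences had been seen. By this choice the run had to stand in 4 of the 6 member promoters. It stood in 0.0578% of all 32851 promoters of the table, searching both strands, and these include the promoters that defined it. The 2 shares are therefore no test of the run. The exact general form of the ISRE (GAAA, any pair of bases, GAAA) was matched in H2-T23 and H2-T22, 2 of the 6, against 3.44% of all promoters. A promoter without a match to that form may still hold a variant of the ISRE. Whether the shared run is such a variant was not tested. H2-K1 and H2-D1 were identical at 49 of these 50 positions and H2-Q7 and H2-Q10 at 43, so such promoters are related copies and not independent examples. H2-M3 matched H2-D1 at 17 positions.

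The whole promoters of H2-T23 and H2-Q7 are given because these members had the greatest age differences. Capitals mark every match to the general form of the ISRE, to the run GTTTCACTTCT and to the NF-kB decamer of enhancer A. They also mark the core of the X2 box (TGACG) and the Y box (CCAAT). Matches were sought on either strand and did not overlap.
H2-T23 (chr17:36032652-36032951, - strand): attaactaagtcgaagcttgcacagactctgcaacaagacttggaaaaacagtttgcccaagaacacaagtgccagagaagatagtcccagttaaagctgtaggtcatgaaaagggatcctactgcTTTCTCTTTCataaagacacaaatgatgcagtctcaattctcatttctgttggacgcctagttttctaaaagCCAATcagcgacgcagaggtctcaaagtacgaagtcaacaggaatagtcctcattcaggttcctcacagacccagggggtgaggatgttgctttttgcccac
H2-Q7 (chr17:35438905-35439204, + strand): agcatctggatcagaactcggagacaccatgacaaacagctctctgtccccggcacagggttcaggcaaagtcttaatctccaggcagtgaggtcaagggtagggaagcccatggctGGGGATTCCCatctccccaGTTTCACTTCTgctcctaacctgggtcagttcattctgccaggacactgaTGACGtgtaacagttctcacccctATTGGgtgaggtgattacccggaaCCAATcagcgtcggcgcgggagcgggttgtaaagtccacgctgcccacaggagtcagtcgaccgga
Enhancer A, the first capital run of H2-Q7, was matched in no other member promoter (0.107% of all promoters) but in both H2-K1 and H2-D1. The X2 core was matched in 4 of 6 (20.8% of all promoters) and CCAAT in 5 of 6 (37.4%). A match is a run of letters and was not measured as a bound site.

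Each difference is a log2 value, aged minus young, from a limma fit of all probe sets, with the Benjamini-Hochberg adjusted p over all of them and a call under 0.05. None of the 7 members was called. Among all probe sets 20 were, 0.0793% of those tested. Of the members 6 had a higher mean in aged tissue, where 49.5% of all probe sets did. H2-T23, H2-Q7 and H2-Q4 had an unadjusted limma p under 0.05 in that direction, as did 3.82% of all probe sets, and 0 members had one in the lower direction (3.96% of all). In H2-T23, H2-Q7 and H2-M3 all 3 aged arrays lay above all 3 young ones, as in 6.69% of all probe sets, and in no member did they all lie below (6.93%). The median difference was 0.34 over the members and 0.00 over all probe sets. In bulk tissue, more cells of a type and more RNA per cell cannot be told apart.

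A guide to background was taken from 1350 probe sets of olfactory and vomeronasal receptors, whose 95th percentile was 3.46 on the log2 scale. By mean over the 6 arrays 4 members lay above it: H2-T23, H2-T22, H2-M3 and H2-Q4. H2-T24, H2-Q7 and H2-Q10 lay below it. These are probe set values, and levels of different genes are not compared.

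**Figure D1:**
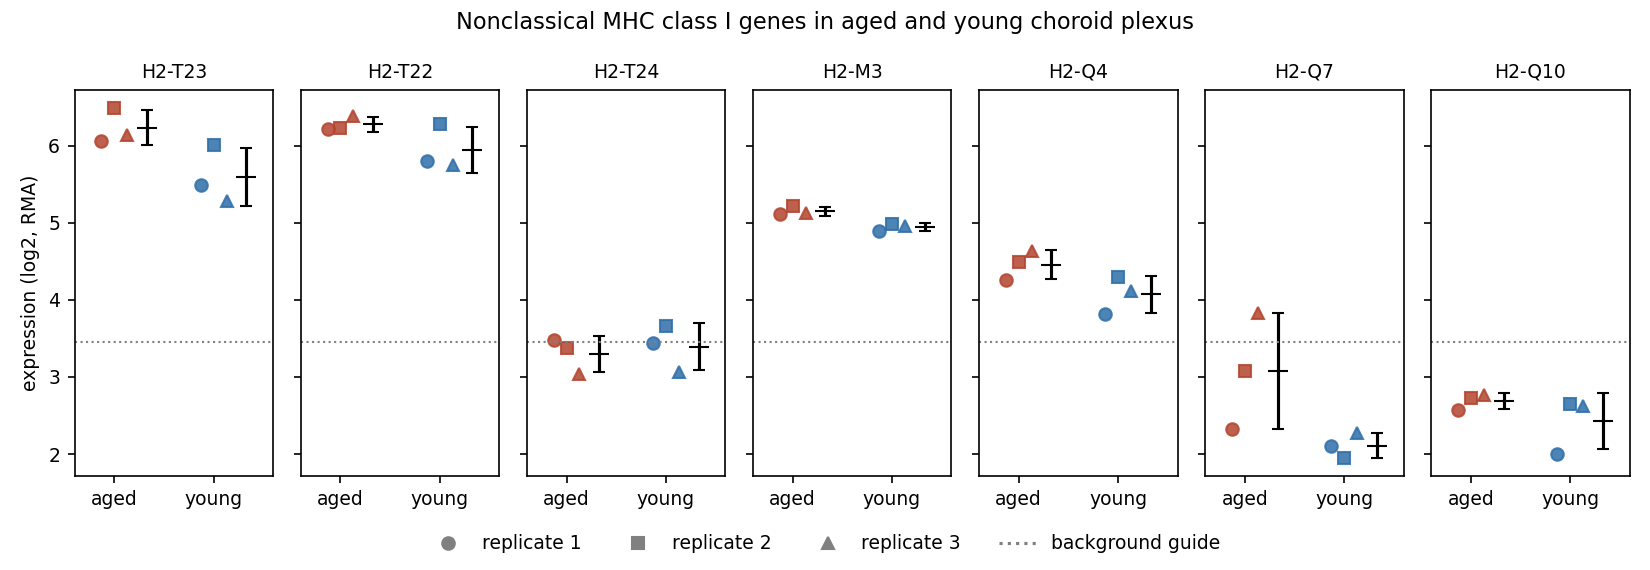
Expression (log2, RMA) of the 7 members in aged (left in each panel) and young (right) choroid plexus. Symbols are single mice, black marks the mean ± SD (n = 3 each) and the dotted line the background guide at 3.46. Aged and young points are apart in H2-T23, H2-M3 and H2-Q7 and overlap in the other 4 genes.

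H2-T23 read 6.06, 6.49 and 6.14 in the 3 aged mice, against 5.48, 6.01 and 5.29 in the 3 young mice. Every aged value was above every young one, but aged replicate 1 exceeded young replicate 2 only narrowly. The mean was 6.23 ± 0.23 in aged and 5.59 ± 0.37 in young tissue (SD, n = 3 each). The difference was 0.64 (SE 0.20, 95% interval 0.17 to 1.11), a 1.56-fold higher value (limma adjusted p = 0.509). For H2-T23 the authors' deposited table gave 0.340 as the q-value among its filtered probe sets.

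H2-T22, which lies next to H2-T23 with no annotated gene between them, read 6.22, 6.23 and 6.39 in aged mice, against 5.80, 6.28 and 5.75 in young mice. The groups overlapped, because young replicate 2 stood among the aged values. The difference was 0.34 (SE 0.16, interval -0.03 to 0.70, limma adjusted p = 0.678). Leaving out young replicate 2 moved it to 0.50.

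H2-T24, the neighbour of H2-T23 on the other side, read 3.48, 3.38 and 3.04 in aged mice, against 3.44, 3.67 and 3.06 in young mice. Both groups straddled the background guide, with 1 array of each above it. It was the member without a higher aged mean: the difference was -0.09 (SE 0.18, interval -0.52 to 0.34, limma adjusted p = 0.934). The sign turned, to 0.039 and 0.048, without aged replicate 3 or young replicate 2.

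H2-M3 had the tightest values of the 7. It read 5.11, 5.22 and 5.13 in aged mice, against 4.89, 4.99 and 4.96 in young mice, with no overlap. The means were 5.15 ± 0.06 in aged and 4.95 ± 0.05 in young tissue (SD, n = 3 each). The difference, 0.21 (SE 0.10, interval -0.03 to 0.44), was larger than the SD of either group and was a 1.15-fold higher value, but its limma adjusted p was 0.687 and its unadjusted limma p 0.0771.

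Among the Q genes, H2-Q4 read 4.25, 4.49 and 4.63 in aged mice, against 3.81, 4.29 and 4.11 in young mice. Aged replicate 1 fell just under young replicate 2, so the groups overlapped by this pair of arrays. The difference was 0.39 (SE 0.16, interval 0.02 to 0.75, limma adjusted p = 0.616), and without young replicate 1 it was 0.26.

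H2-Q7 read 2.33, 3.08 and 3.83 in aged mice, against 2.10, 1.95 and 2.27 in young mice. The aged mice were spread far more widely than the young ones. Aged replicate 1 was close to the young values, and aged replicate 3 was the array above the background guide. The difference was 0.97 (SE 0.33, interval 0.21 to 1.73, limma adjusted p = 0.533). It was 0.60 without aged replicate 3 and 1.35 without aged replicate 1. The fold was 1.96 on the mean of log2 values and 2.13 in the authors' deposited table. Its size is uncertain, because every value but that of aged replicate 3 lay in the background range. No probe set was found under the symbols of H2-Q6, H2-Q8 and H2-Q9, the closest relatives of H2-Q7, and probes may be shared between such copies.

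H2-Q10 read 2.57, 2.73 and 2.77 in aged mice, against 2.00, 2.65 and 2.63 in young mice. All arrays were under the guide. The difference of 0.26 (SE 0.18, interval -0.16 to 0.69, limma adjusted p = 0.783) rested on young replicate 1, without which it was 0.05.

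**Figure D2:**
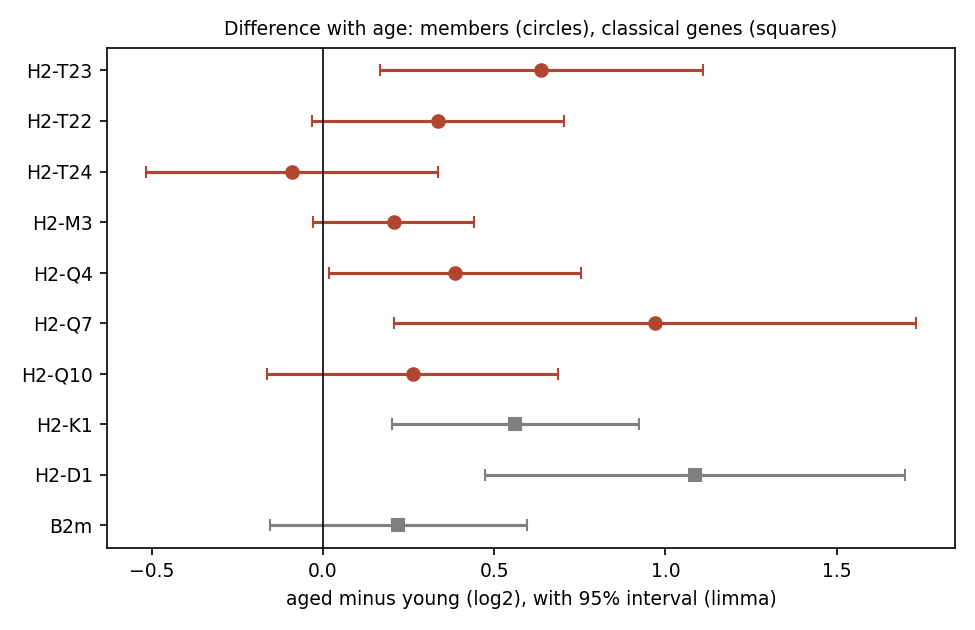
Difference between aged and young tissue (aged minus young, log2) with its 95% interval from limma, for the 7 members (circles) and for H2-K1, H2-D1 and B2m (squares). The intervals of H2-T23, H2-Q4 and H2-Q7 lie above 0, as do those of H2-K1 and H2-D1, that of H2-T24 is centred close to 0, and none of the 10 genes passed at an adjusted p of 0.05.

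The members did not share 1 order of the arrays. Young replicate 2 was the highest young array in 6 of the 7 members, H2-Q7 being the exception, where it was the lowest. Aged replicate 3 was the highest aged array in 4 members, aged replicate 2 in H2-T23 and H2-M3, and aged replicate 1 in H2-T24. Over the 6 arrays the correlation was 0.88 between the neighbours H2-T23 and H2-T22 and 0.76 after each age group's mean was taken out, and it was 0.89 and 0.68 between H2-T23 and H2-M3. H2-Q4 and H2-Q7 correlated at 0.79, and at 0.55 within ages. The classical gene H2-D1, with all its values above the background guide, ranked the 6 arrays in the same order as H2-Q7. Whether these probe sets share signal was not tested. H2-Q7 and H2-T24 correlated at -0.63. These coefficients describe 6 arrays, which also share the age difference, and carry no test.

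**Figure D3:**
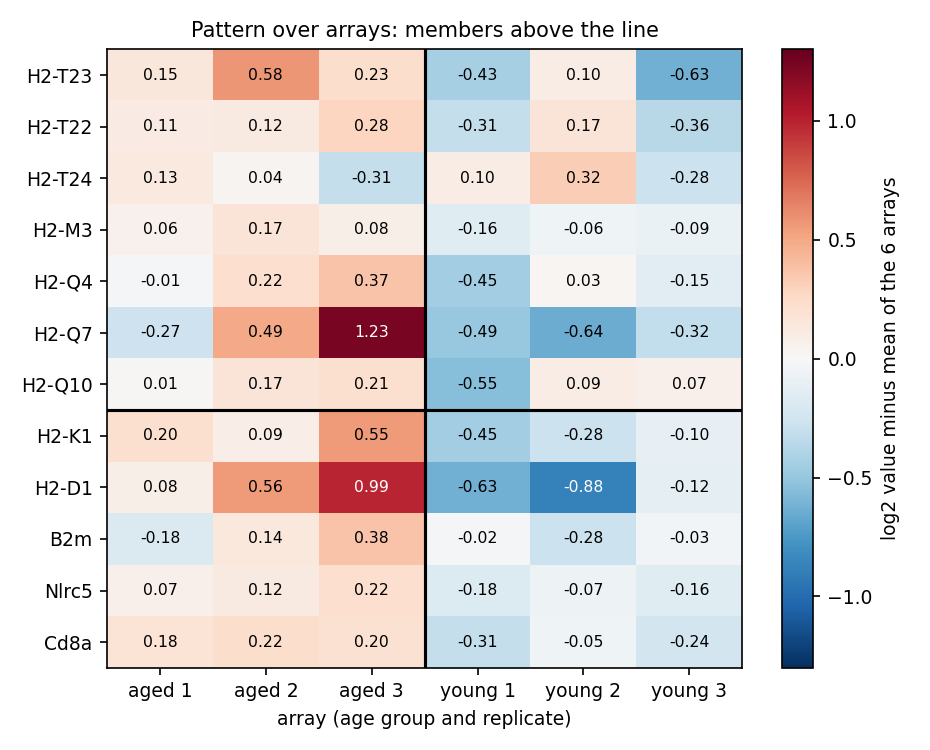
Log2 value of each gene minus its mean over the 6 arrays, with aged arrays on the left and young arrays on the right, for the 7 members (above the line) and H2-K1, H2-D1, B2m, Nlrc5 and Cd8a (below it). Young replicate 2 stands at 0.10 in H2-T23 and 0.17 in H2-T22 but at -0.88 in H2-D1, and aged replicate 3 stands at 1.23 in H2-Q7 and 0.99 in H2-D1.

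The classical genes were set beside the members as values, and the difference between the genes' responses was not tested. H2-D1 read 7.71, 8.19 and 8.62 in aged mice, against 6.75 to 7.51 in young mice, with no overlap. H2-K1 read 6.52, 6.40 and 6.86 in aged mice, against 5.86, 6.03 and 6.21 in young mice. In both, the aged values lay above the young ones, with differences of 1.09 (SE 0.26, limma adjusted p = 0.385) and 0.56 (SE 0.16, limma adjusted p = 0.437). B2m, the light chain, stood at 10.59 ± 0.28 in aged and 10.37 ± 0.15 in young tissue (SD, n = 3 each) and overlapped. Young replicate 2, high in most members, was the lowest array in H2-D1 and B2m. With the mean pattern of the 4 members above the guide, H2-K1 and H2-D1 had correlations of 0.71 and 0.64 over the 6 arrays, but of 0.07 and -0.15 within ages.

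Other class I-like genes, 30 measured of 39 listed, had a median difference of 0.00. None was called by limma, and 10 had a mean above the guide. An unadjusted limma p was under 0.05 for 1 higher and 1 lower gene, against 3.82% and 3.96% of all probe sets. H2-M5, of the M region, stood at 5.59 ± 0.39 in aged and 5.14 ± 0.10 in young tissue, and Hfe, the regulator of iron uptake, at 7.45 ± 0.19 in aged and 7.88 ± 0.24 in young tissue (SD, n = 3 each). Ulbp1, a ligand of the activating receptor NKG2D, differed by 0.28 and H2-M10.2 by 0.38, both in the background range. H2-Q1 and H2-Q2, near H2-Q4 on the chromosome, differed by -0.24 and -0.06.

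At an unadjusted limma p under 0.05, 3.82% of all probe sets were higher in aged tissue. Of 13 genes that load or supply peptides, none was called and 2 had such a p, both higher in aged tissue (median difference 0.09). That count was 4 without aged replicate 1 and with the replicate block. It was 1 without aged replicate 2, aged replicate 3, young replicate 1 or young replicate 2, after quantile normalization once more and with array weights. Tapbp, which encodes tapasin, the bridge between class I chains and the peptide transporter, read 7.97, 8.14 and 8.20 in aged mice, against 7.59, 7.76 and 7.83 in young mice, with no overlap (difference 0.38, SE 0.12, limma adjusted p = 0.496). Tap2, a subunit of that transporter, differed by 0.52, with aged replicate 1 at 5.18 among the young values of 5.12 to 5.24. The immunoproteasome subunits Psmb8 and Psmb9 differed by 0.52 and 0.46, and were highest in aged replicate 3, at 5.15 and 4.12. The immunoproteasome subunit Psmb10 went the other way, at 5.36 in aged and 5.53 in young tissue (difference -0.17).

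Of 16 transcription regulators of class I genes, Nlrc5, the class I transactivator, had the smallest p. It read 3.24, 3.29 and 3.39 in aged mice, against 2.99, 3.11 and 3.02 in young mice. The groups did not overlap (difference 0.27, SE 0.10, limma adjusted p = 0.590), but all 6 values were under the background guide. None of the 16 was called (median difference 0.01). At an unadjusted limma p under 0.05, 1 was higher and 0 lower, against 3.82% and 3.96% of all probe sets. That 1 became 0 with median centring, both filters on dim probe sets, the variance trend, the replicate block, and without aged replicate 2, aged replicate 3, young replicate 1 or young replicate 3. Nfyb, Rela and Rfxap, the next by p, differed by -0.17, 0.12 and -0.08, and the interferon-driven factor Irf7 by 0.00.

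A list of receptors of classical and nonclassical class I, 24 measured, also held receptors of related families, such as Lilrb4a, and the formyl peptide receptors Fpr1 and Fpr2. Not every entry is therefore a class I receptor. The list had no call (median difference 0.09). At an unadjusted limma p under 0.05, 6 were higher and 0 lower, against 3.82% and 3.96% of all probe sets. Only 4 of the 24 had means above the guide. The count at that p was 1 and 2 with the filters above the array median and above the guide, and 4 without aged replicate 3, young replicate 1 or young replicate 3. Lilrb4a (Lilrb4 in the files), an inhibitory receptor of myeloid cells, read 5.80, 6.02 and 6.60 in aged mice, against 4.74, 4.24 and 5.25 in young mice (difference 1.40, SE 0.29, limma adjusted p = 0.265). Trgc4 and Trgc2, constant segments of the gamma chain of gamma delta T cell receptors, differed by 1.63 and 0.78 (limma adjusted p = 0.360 and 0.537). Trgc4 read 4.03, 2.90 and 4.62 in aged mice, against 2.08, 2.17 and 2.42 in young mice. Its young values and aged replicate 2 were under the guide, so the size of its difference is set against background. Cd8a differed by 0.40 (limma adjusted p = 0.435) with all values under the guide. Klrd1 and Klrc1, which encode the CD94 receptor complex that reads the H2-T23 product, lay at 2.68 and 1.73 in aged and 2.61 and 1.94 in young tissue, in the background range.

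By the likeness rule, the 8 probe sets closest to the mean pattern of H2-T23, H2-T22, H2-M3 and H2-Q4 were taken from 2607 that varied enough (SD of at least 0.3) and lay above the guide. They were C1s1, Ugt1a7c, Lysmd1, Dmgdh, Spata2l, Tlx2, Plbd1 and Azin2, with correlations of 0.94 to 0.97 over the 6 arrays. C1s1, a protease of the complement system, was nearest. It read 3.75, 4.26 and 3.89 in aged mice, against 2.49, 3.94 and 2.62 in young mice, so that young replicate 2 stood among the aged values, and its correlation within ages was 0.97. Tlx2, a homeobox gene, stood at 4.74 ± 0.13 in aged and 3.98 ± 0.18 in young tissue (SD, n = 3 each), and Plbd1, a lysosomal hydrolase, at 6.39 ± 0.19 in aged and 5.66 ± 0.16 in young tissue (SD, n = 3 each). None of the 8 was called, and they are the extremes of a large set of candidates over few arrays.

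Markers of other cell types were measured on the same arrays. Of 12 macrophage markers 10 were higher at an unadjusted limma p under 0.05, as were 3.82% of all probe sets. Of the rest, Csf1r was higher without reaching that p and Mrc1 had a lower aged mean (difference -0.29). The summed macrophage level ran from 621 to 1064 in aged and from 330 to 552 in young mice in linear units. Of 8 T cell markers 2 were higher at that p, with all 8 means under the guide and sums of 58.5 to 69.1 in aged and 53.3 to 54.1 in young mice. Of 8 natural killer cell markers 0 were, and their sums were 76.3 to 88.7 in aged and 71.0 to 83.0 in young mice. The sum of 8 B and plasma cell markers was 3510 in aged replicate 3, 279 and 308 in the other aged mice and 135 to 189 in young mice. Only 2 of the 8, Ighm and Igkc, had means above the guide, at 9.58 and 11.35 in aged replicate 3, while Cd79b and Pax5 had lower aged means. That array was the highest in H2-T22, H2-Q4, H2-Q7 and H2-Q10, and also in H2-D1, H2-K1, B2m and the macrophage sum. All 8 endothelial markers had lower means, 7 of them at an unadjusted limma p under 0.05, as did 3.96% of all probe sets. The endothelial sums were 339 to 354 in aged and 461 to 661 in young mice. All 7 fibroblast markers had lower means, 3 at that p, with sums of 415 to 801 in aged and 699 to 1275 in young mice. The sum of 5 neuron markers was 2046 in aged replicate 1, 146 in aged replicate 2 and 337 in aged replicate 3, against 387 to 518 in young mice. Aged replicate 2 was also the lowest array in the sums of 5 oligodendrocyte and 5 astrocyte markers, at 264 and 219, and of the fibroblast markers. Limma called none of these markers, and the part of these cells in the members' differences was not tested.

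**Figure D4:**
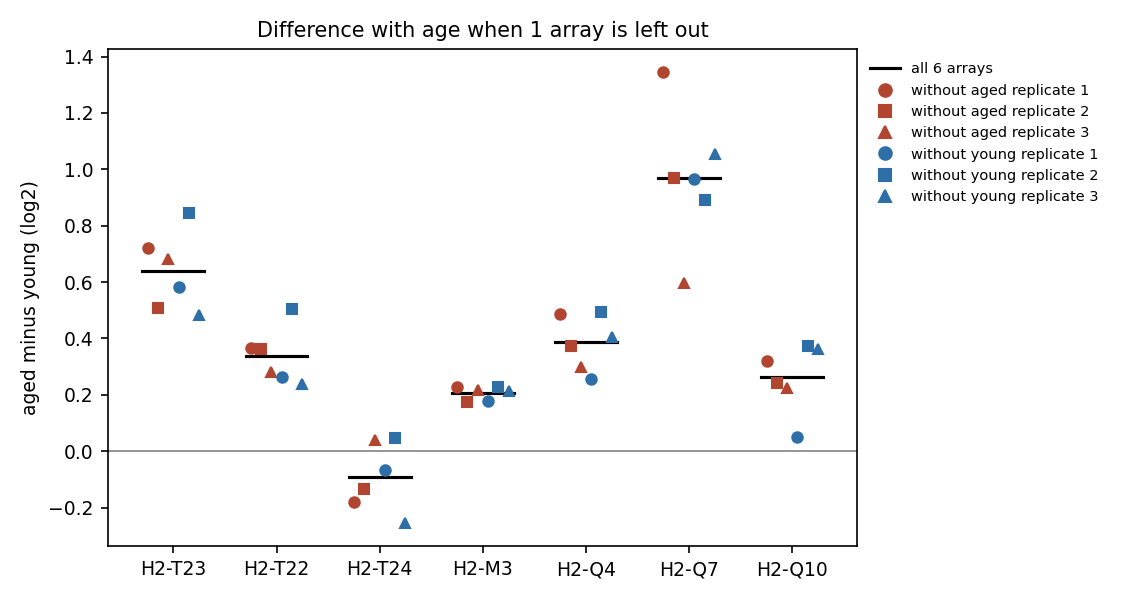
Difference between aged and young tissue (aged minus young, log2) for each member with all 6 arrays (black line) and with 1 array left out (red, an aged array; blue, a young array). H2-M3 ranges from 0.17 to 0.23 and H2-T23 from 0.48 to 0.85, while H2-Q7 ranges from 0.60 to 1.35 and H2-T24 crosses 0.

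Leaving out single arrays kept the 6 positive differences above 0. H2-T23 ranged from 0.48 to 0.85 and had an unadjusted limma p under 0.05 in 12 of 14 alternatives, H2-Q7 in 11 of the 12 that kept it, and H2-Q4 in 6 of 14. H2-M3 ranged from 0.17 to 0.23. Without aged replicate 2 or young replicate 3, 1 member had an unadjusted limma p under 0.05 in place of 3. Without aged replicate 3 or young replicate 1, after quantile normalization once more and with median centring, the filters, the variance trend or array weights, 2 had one. No alternative brought a member's limma adjusted p under 0.05: the lowest was 0.101, for H2-Q7 without aged replicate 1, and that of H2-T23 was 0.296.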

How the data were processed

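Choroid plexus RNA was extracted with Trizol, labelled with biotin and hybridised at a core facility, per the labels' protocols. The authors deposited log2 expression values per Brainarray probe set, 1 per Entrez gene, as the headers of the deposited file show, and RMA and limma 3.14.4 are named in the submitters' processing notes. Their table also holds a signed fold change (the t statistic beside it is a score), p-values and q-values, per the file headers. Array model, annotation version and genome build were not given in the sources used here. Array medians were 4.03 to 4.09 and correlations between arrays 0.982 to 0.990. The highest value was 12.1 on young replicate 1 and 13.3 on the others, so genes brighter than that on the other arrays read lower there. The cause was not tested.

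All 25206 probe sets were fitted by lmFit and eBayes of limma 3.58.1 (R 4.3.3; 1 term for age, no covariate, no filter), after a test of the fit on simulated data. Symbols were updated by Entrez identifier to a RefSeq table of GRCm38.p6 (23740 matched). Fixed rules named all 7 members, H2-K1, H2-D1, B2m and Nlrc5, up to 4 genes of each related list by p, and 8 genes by likeness. H2-Q1, H2-Q2, Psmb10, Irf7, Klrd1 and Klrc1 were named after their values were seen. Protein sequences were not used here. Members and lists were chosen with earlier results of these data known. Alternatives were a rounded value table, renormalization, median centring, filters, another prior, array weights, a replicate block and leaving out each array. The number of arrays limits the precision.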

Additional observations from a re-analysis of the deposited data

How the results depend on the processing

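No member was called by limma under any of the alternatives run, in which the median difference over the members stayed between 0.26 and 0.50 (0.34 with all arrays). In direction, H2-T24 alone reversed, to 0.039 without aged replicate 3 and 0.0475 without young replicate 2 (range without single arrays -0.26 to 0.0475), and the cause was not tested. The background count over all probe sets, 15 higher and 5 lower, was less stable. Lower calls numbered 8 after quantile normalization once more and after median centring, 12 and 9 with the filters on probe sets above the median and above the background guide (fewer genes tested), 11 with a variance trend and robust eBayes, and 1 with the replicate block. Without single arrays higher calls ranged from 0 to 27 and lower calls from 0 to 25. Replicate numbers showed no clear pairing of the mice. Deviations of same-numbered arrays correlated at -0.023, 0.15 and -0.050, and those of differently numbered arrays at -0.14 to 0.15. With 3 arrays in each group, these values cannot settle whether arrays were paired. The filters removed H2-T24, H2-Q7 and H2-Q10. H2-Q7 and H2-Q10 in particular are limited by signal close to background.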
